A study of Mus musculus with 2 samples.

Results

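The genes described here are 10 mouse genes used as markers of injured kidney tubules, namely Havcr1, Lcn2, Spp1, Clu, Vcam1, Sox9, Vim, Cdkn1a, Gadd45a and Gadd45g. They were taken by name, and a probe was assigned to a gene when its RefSeq accession belonged to that gene. Of 39426 gene probes on the array, 12 belonged to these genes, which are 10 of the 20017 genes with a named probe. Vcam1 and Cdkn1a had 2 probes each and the other 8 genes had 1. Both arrays held 30 spots of these probes, because 1 probe of Cdkn1a and the probe of Sox9 were each spotted 10 times. In all, 9 of the 10 genes were well above background on both arrays. Sox9 was not.

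The RNA came from glomerular regions dissected out of kidneys of male mice with a C57BL/6J background. TG+STZ stands for transgenic animals that overexpress Sirt1, a protein deacetylase, and WT+STZ for wild-type animals. All animals of both groups were given streptozotocin (STZ), which kills pancreatic beta cells and so causes diabetes, in citrate buffer (100 mmol/l) at 8 weeks of age, and were killed at 32 weeks. With 1 array for each group there are no replicates, no test between groups was possible, and no p-value is given. The promoter that drives the transgene and the number of mice behind each array are not given in the sources used here. No array of nondiabetic mice was analysed here, so the values do not say how far diabetes itself had changed these genes. Sirt1 read 2977 intensity units on the TG+STZ array and 2625 on the WT+STZ array, a scaled log2 difference of 0.10 ± 0.20, within its scanner error, so this probe does not show the overexpression named in the label. Whether the probe reads the transcript of the transgene was not tested.

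When tubule epithelium is damaged, its cells lose mature transporters, re-enter a progenitor-like state and switch on genes that are silent or low in healthy tubules. Some of these encode surface or secreted proteins that can be measured in urine. Others mark dedifferentiation, arrest of the cell cycle or the response to DNA damage. Most of them are also made by other cells of the kidney or blood, so a level in mixed tissue cannot be assigned to tubule cells.

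Gadd45g stood apart from the other injury markers, 2.68-fold higher on the TG+STZ array. Havcr1 was next at 1.45-fold higher, and the next furthest was Vcam1, 1.28-fold higher in WT+STZ. Of the 9 measured genes, 4 were higher in TG+STZ (Gadd45g, Havcr1, Lcn2 and Cdkn1a) and 5 were lower (Vcam1, Gadd45a, Spp1, Clu and Vim). Their median log2 difference was -0.02, against 0.00 over all 15975 measured genes. Among all measured genes, 50.9% were higher and 49.1% lower. A difference is TG+STZ minus WT+STZ in log2 units after each array was set to its own 75th percentile, so that 1 means 2-fold. At a threshold of 2-fold, 1 of the 9 genes was higher, where 0.520% of all measured genes were, and 0 were lower, where 0.469% were. At 1.5-fold the counts were again 1 higher, against 1.75% of all genes, and 0 lower, against 1.91%.

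**Figure D1:**
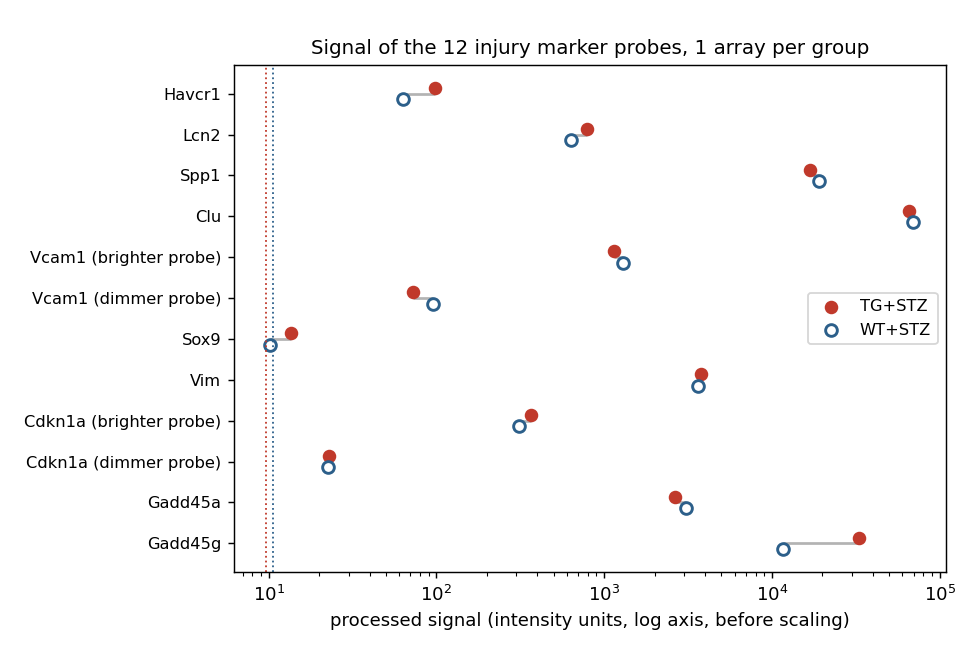
Processed signal of each injury marker probe in intensity units on a log axis, before scaling, with TG+STZ as filled red points and WT+STZ as open blue points. Dotted lines mark the lowest signal counted as well above background on each array, 9.70 units in TG+STZ (red) and 10.6 units in WT+STZ (blue). The points of Gadd45g lie furthest apart, at 32857 and 11602 units, and Sox9 lies at the background limit.

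The error given after ± is the one the scanner software assigns to both spots of a probe. For a gene with several probes, the errors of the probes were combined as if independent. This makes the error of such a gene smaller, as for Vcam1 at 0.15, and easier to exceed. For bright probes it is close to 0.20 on the log2 scale, and it covers a single hybridisation, not the spread between mice. Of the 9 measured genes, 6 differed by more than this error and 3 (Clu, Vim and Cdkn1a) did not. Over all measured genes, 23.7% differed by more than their error. The spread of the differences was wider among dim genes. Within 10 equal classes of mean signal, its SD was 0.36 in the class of Havcr1 and 0.18 in the class of Gadd45g, Spp1 and Clu.

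**Figure D2:**
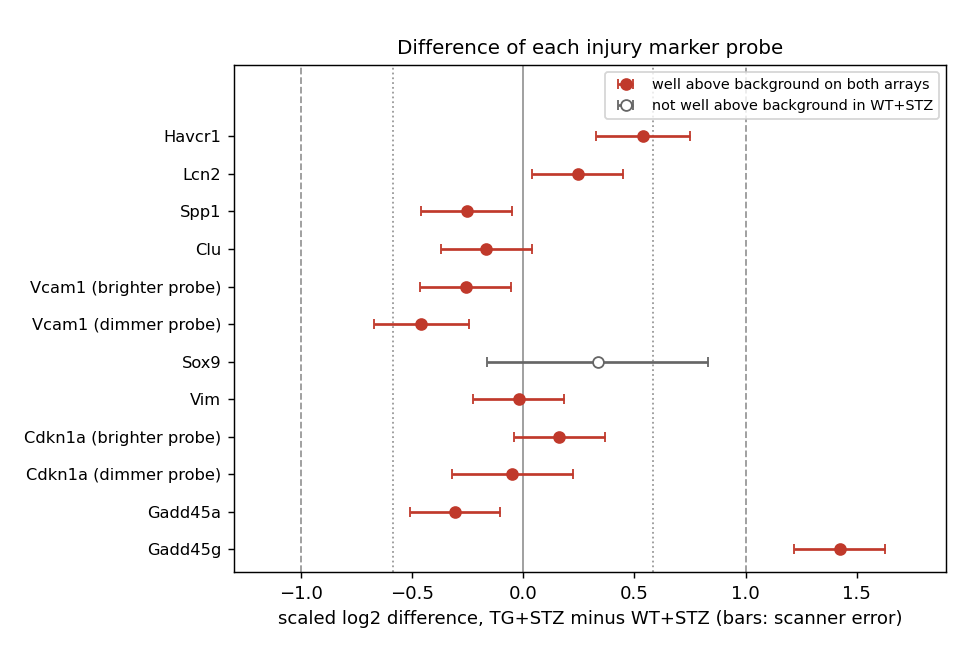
Scaled log2 difference, TG+STZ minus WT+STZ, of each injury marker probe, with the scanner error as bars. Dashed lines mark 2-fold and dotted lines 1.5-fold in either direction. Gadd45g at 1.42 is the probe beyond 2-fold, and the remaining 11 lie between -0.46 and 0.54.

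Among the surface and secreted markers, Havcr1 and Lcn2 were higher in TG+STZ while Spp1, Clu and Vcam1 were lower. Havcr1 encodes KIM-1, a receptor for phosphatidylserine that appears on injured proximal tubule cells. It read 97.6 units in TG+STZ and 63.6 units in WT+STZ. The scaled log2 difference was 0.54 ± 0.21, or 1.45-fold, just short of 1.5-fold. Of all measured genes, 335 stood higher. Among the 1597 genes in its class of signal, 8.64% lay as far from 0 or further, so a gap of this size was not rare at this brightness. The value also depended on background correction, since it was 0.25 under normexp, an alternative correction whose offset pulls dim genes toward 0.

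Lcn2 encodes NGAL, an iron-siderophore binding protein that injured distal tubules and neutrophils secrete. It read 792 units in TG+STZ and 633 units in WT+STZ, a log2 difference of 0.25 ± 0.20 and 1.19-fold. The difference was a little larger than the scanner error. Of all measured genes, 18.0% lay as far from 0.

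Spp1 encodes osteopontin, a secreted ligand of integrins and CD44 that tubule cells and macrophages make. It read 16941 units in TG+STZ and 19130 units in WT+STZ. The log2 difference was -0.25 ± 0.20, so WT+STZ was 1.19-fold higher. Clu encodes clusterin, a secreted chaperone. It was bright on both arrays, at 65647 units in TG+STZ and 69692 units in WT+STZ, and its log2 difference of -0.17 ± 0.20 lay within the error. In the class of bright genes to which both belong, 8.39% of genes lay as far from 0 as Spp1 and 17.0% as far as Clu.

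Vcam1 encodes an adhesion molecule for leukocytes that cytokine-activated endothelium, parietal cells of the glomerular capsule and injured tubule cells carry. Its brighter probe read 1137 units in TG+STZ and 1288 units in WT+STZ, a log2 difference of -0.26 ± 0.20. The dimmer probe read 73.1 units in TG+STZ and 95.0 units in WT+STZ, a log2 difference of -0.46 ± 0.21. Both probes were lower in TG+STZ, and their mean was -0.36 ± 0.15, or 1.28-fold higher in WT+STZ. The mean was the lowest of the 9 measured genes, with 872 of the 15975 measured genes lower still.

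Sox9, a transcription factor that marks regenerating tubule cells, was at the limit of detection. The software marked 3 of its 20 spots over both arrays as outliers. Of the spots left, 7 of 8 were well above background in TG+STZ and 2 of 9 in WT+STZ. The 8 spots in TG+STZ ran from 11.8 to 16.0 units with a median of 13.6, and the 9 spots in WT+STZ ran from 5.35 to 13.7 units with a median of 11.1. The ranges overlapped, and 3 of the 8 spots in TG+STZ lay above every spot in WT+STZ after scaling. At the 8 positions usable on both arrays the TG+STZ spot was higher in 8, by 0.00 to 1.19 on the log2 scale. The log2 difference of the probe was 0.33 ± 0.50, within the scanner error, so the level of Sox9 was not resolved between the arrays.

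Vim encodes vimentin, an intermediate filament protein of mesenchymal cells and podocytes that dedifferentiated tubule cells also make. It read 3771 units in TG+STZ and 3621 units in WT+STZ. After scaling, the log2 difference was -0.02 ± 0.20, the smallest of the 9 measured genes, and its sign turned under 2 of 10 other settings.

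Cdkn1a encodes p21, an inhibitor of cyclin-dependent kinases and a target of p53. The brighter of its probes was spotted 10 times. Leaving out 1 outlier spot, 9 spots in TG+STZ ran from 352 to 386 units with a median of 370, and 10 spots in WT+STZ ran from 285 to 330 units with a median of 315. The spots of the 2 arrays did not overlap, also after scaling, and TG+STZ was higher at 9 of 9 shared positions, by 0.07 to 0.22 on the log2 scale. The spot SD was 0.04 in TG+STZ and 0.07 in WT+STZ, and the log2 difference of the probe was 0.16 ± 0.20. The spots are repeats of 1 labelled RNA on each array and say nothing of the spread between mice. Over the 313 measured probes with 8 or more usable spots on each array, the median distance from 0 was 0.09 on the log2 scale. The dimmer probe, for another transcript of the gene, read 23.0 units in TG+STZ and 22.6 units in WT+STZ, a log2 difference of -0.05 ± 0.27. The probes thus lay on opposite sides of 0, both within the error, and their mean was 0.06 ± 0.17.

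**Figure D3:**
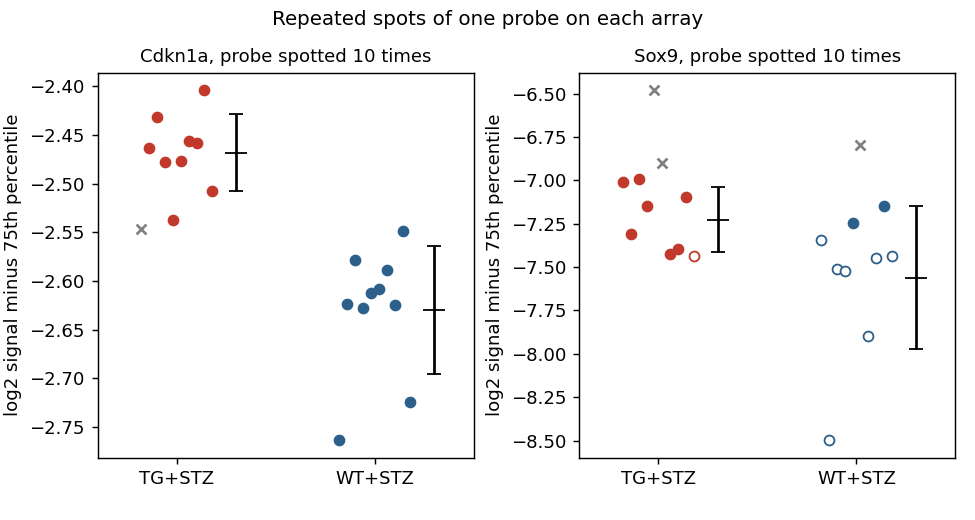
Scaled log2 signal (log2 signal minus the 75th percentile of the array) of each spot of the Cdkn1a probe (left) and the Sox9 probe (right) that were spotted 10 times, for TG+STZ (red) and WT+STZ (blue). Filled points are well above background, open points are not, grey crosses are outlier spots left out, and black bars give the mean and SD of the spots used. The Cdkn1a spots of the arrays do not overlap, and those of Sox9 do.

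Within the GADD45 family, Gadd45g differed from the other members. GADD45 proteins are small stress sensors that bind the kinase MAP3K4 (MTK1), PCNA and p21. Gadd45g read 32857 units in TG+STZ and 11602 units in WT+STZ, and its log2 difference of 1.42 ± 0.20 was 6.98 times its error. Only 35 of the 15975 measured genes stood higher. In its class of bright signal, 0.125% of 1598 genes lay as far from 0. Gadd45a, which p53 switches on, read 2642 units in TG+STZ and 3095 units in WT+STZ, a log2 difference of -0.31 ± 0.20. In its own class of signal, 5.51% of 1598 genes lay as far from 0, a smaller share than the 8.64% for Havcr1 in its class. Gadd45b, the other member of the family, read 401 units in TG+STZ and 424 units in WT+STZ, a log2 difference of -0.16 ± 0.20. Within the same arrays, Gadd45g therefore stood apart from Gadd45a by 1.73 ± 0.29 and from Gadd45b by 1.58 ± 0.29 on the log2 scale, values that no scaling of whole arrays by a constant can alter. Gadd45a and Gadd45b differed by -0.15 ± 0.29. The Gadd45g value rested on 1 probe with 1 spot per array.

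**Figure D4:**
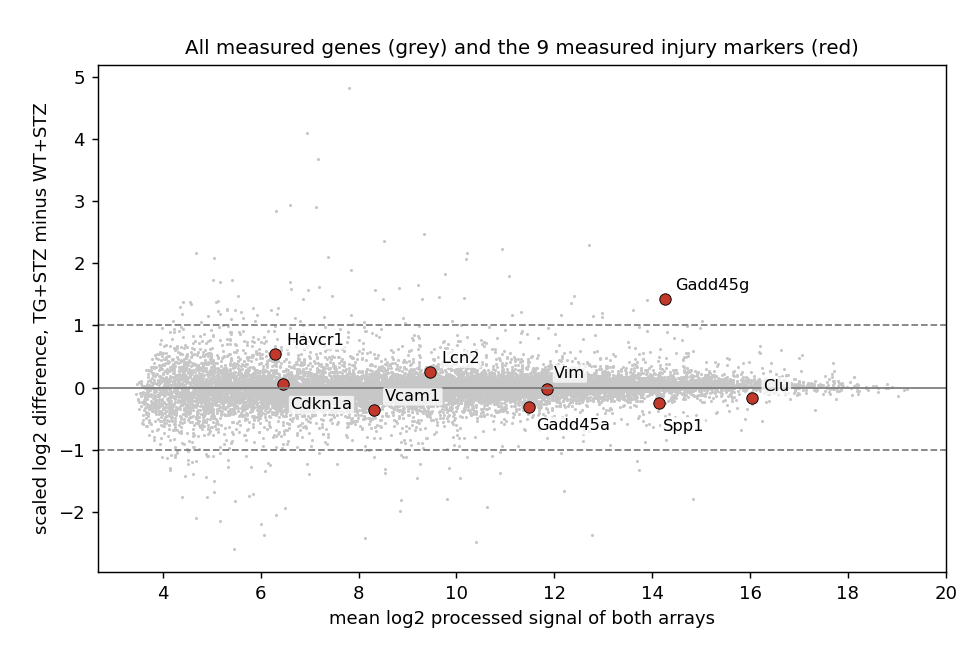
Scaled log2 difference, TG+STZ minus WT+STZ, against the mean log2 processed signal of both arrays for 15975 measured genes (grey) and the 9 measured injury markers (red, named). Dashed lines mark 2-fold. Gadd45g lies above the narrow band of bright genes, and the other markers lie inside the band of their brightness.

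The start regions of the growth arrest genes are shown because Gadd45g and Gadd45a belong to 1 family yet stood 1.73 apart, and because Cdkn1a is a known target of p53. Each window holds 300 bases of RefSeq sequence (GRCm38.p6), from 250 bases before to 50 after the annotated start, read 5′ to 3′ on the strand of the gene. The window of Gadd45g is chr13:51846425-51846724 (plus strand), that of Gadd45a is chr6:67037358-67037657 (minus strand) and that of Cdkn1a, the first of its 2 annotated starts, is chr17:29090729-29091028 (plus strand). Capitals mark matches on either strand to 8 motifs described after the sequences.
Gadd45g: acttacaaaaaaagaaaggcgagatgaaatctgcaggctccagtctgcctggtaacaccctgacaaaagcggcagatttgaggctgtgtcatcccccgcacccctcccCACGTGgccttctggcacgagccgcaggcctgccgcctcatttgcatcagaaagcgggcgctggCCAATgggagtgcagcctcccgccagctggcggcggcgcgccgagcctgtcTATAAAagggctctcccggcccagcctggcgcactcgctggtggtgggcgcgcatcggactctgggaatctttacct
Gadd45a: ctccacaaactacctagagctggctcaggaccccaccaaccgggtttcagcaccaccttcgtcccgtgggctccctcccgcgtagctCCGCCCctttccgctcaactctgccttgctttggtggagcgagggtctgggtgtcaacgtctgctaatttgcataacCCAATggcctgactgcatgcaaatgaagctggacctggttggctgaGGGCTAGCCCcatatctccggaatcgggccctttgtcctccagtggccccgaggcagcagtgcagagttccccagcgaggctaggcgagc
Cdkn1a: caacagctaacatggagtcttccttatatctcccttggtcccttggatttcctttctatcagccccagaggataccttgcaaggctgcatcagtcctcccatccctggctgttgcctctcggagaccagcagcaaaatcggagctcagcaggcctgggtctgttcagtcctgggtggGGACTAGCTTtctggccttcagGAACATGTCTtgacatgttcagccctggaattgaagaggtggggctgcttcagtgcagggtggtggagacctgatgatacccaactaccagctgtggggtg

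The motifs were the TATA box (TATAAA), the CCAAT box (CCAAT), the GC box (GGGCGG), the cyclic AMP response element (TGACGTCA), the AP-1 site (TGAGTCA), the STAT site (TTCNNNGAA), the E-box (CACGTG) and the p53 motif, by which a single decamer of the p53 binding element is meant. The Gadd45g window held a TATA box beginning at position -27 from the start, a CCAAT box at -78 and an E-box at -142. Of 32851 RefSeq windows of the same length, 13.6% held a TATA box, 37.4% a CCAAT box and 7.15% an E-box. The Gadd45a window held a CCAAT box, a GC box (in 35.7% of windows) and a p53 motif (in 8.36%), and no TATA box. The Cdkn1a window held 2 p53 motifs, at positions -73 and -51. No letters of the STAT site (in 8.30% of windows), the AP-1 site (in 5.20%) or the cyclic AMP response element (in 1.79%) occurred in the windows of any of the 7 injury markers that had one. Matches in other members were a GC box in Lcn2, TATA and CCAAT boxes in Spp1 and Vim, and 2 GC boxes at the second start of Cdkn1a. The 3 windows of Havcr1 and the second window of Spp1 held no match. Clu, Vcam1 and Sox9 had no window in the table. A match is a match of letters and does not show binding.

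Genes of the same pathways were read from lists chosen for this purpose with earlier results of these data known, and no test of a list was made. Of 38 further injury genes, 37 were measured, 20 higher and 17 lower in TG+STZ, with a median of 0.01, which turned below 0 under 2 other settings (normexp and scaling to detected probes). Beyond 2-fold lay 1 gene on either side of 0, where 0.520% of all measured genes were higher and 0.469% lower. By more than their scanner error, 10 were higher and 13 lower, where 23.7% of all measured genes differed by more than theirs in either direction. Krt20, a keratin of surface epithelium of the urinary tract that injured tubules also make, was dim and higher at 1.19 ± 0.26 (55.7 units in TG+STZ and 23.2 units in WT+STZ). Ccl2, the monocyte chemoattractant, was lower at -1.12 ± 0.20 (351 units in TG+STZ and 721 units in WT+STZ). Fgb, a fibrinogen chain, stood at -0.63 ± 0.20, and Il34, a ligand of the macrophage receptor CSF1R, at 0.60 ± 0.20. Both the 9 markers and the longer list thus held genes on either side of 0.

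The p53 target genes lay on both sides of 0. Of 25 listed, 24 were measured, 16 higher and 8 lower, with a median of 0.05. Beyond 1.5-fold lay 0 genes in either direction, where 1.75% of all measured genes were higher and 1.91% lower. Differences beyond the scanner error were 4 higher and 3 lower, against 23.7% of all measured genes in either direction. The furthest were Sesn1 and Sesn2, stress-induced inhibitors of mTORC1, at -0.37 ± 0.20 and -0.34 ± 0.20, Bak1, a pore-forming protein of apoptosis, at 0.37 ± 0.20 and Plk2, a polo-like kinase, at 0.27 ± 0.20. Trp53 itself, which encodes p53, stood at 0.01 ± 0.20, and Mdm2, its ubiquitin ligase and target, at 0.07 ± 0.20. Beside them, Gadd45a and Cdkn1a were at -0.31 and 0.06.

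Among the growth arrest genes and their partners, 19 of 20 were measured, 10 higher and 9 lower, with a median of 0.01 that turned below 0 under 4 of 10 other settings. Cdkn2c, which encodes the inhibitor p18, was higher at 0.66 ± 0.20 and Ccnd1, which encodes cyclin D1, at 0.65 ± 0.20. Cdkn2b, which encodes the inhibitor p15, was lower at -0.63 ± 0.15, with both probes below 0, and Ccnd3, another D-type cyclin gene, stood at -0.22 ± 0.14. Cdkn2a, a marker of cell senescence, was not well above background on either array. Inhibitors of the cell cycle thus stood on both sides of 0.

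Receptors and binding partners of the injury proteins lay on both sides of 0. Of 18 listed, 15 were measured, 5 higher and 10 lower, of which 1 and 4 by more than their scanner error. Among all measured genes, 23.7% differed by more than theirs in either direction. The median was -0.11, and it was -0.02 with no filter on dim probes and -0.03 with a laxer detection flag or the brightest probe of each gene. Itga9, an integrin chain that binds osteopontin and VCAM-1, was the furthest at 0.75 ± 0.20 (1139 units in TG+STZ and 642 units in WT+STZ). Itgb3, a chain of another osteopontin receptor, stood at -0.33 ± 0.21, Timd2, a relative of Havcr1, at -0.31 ± 0.14, and Icam1, an endothelial adhesion molecule, at -0.38 ± 0.21. Itga4, a chain of the leukocyte receptor for VCAM-1, stood at -0.11 ± 0.21. Of the Sox family without Sox9, 12 of 15 genes were measured, 2 higher and 10 lower, with a median of -0.13. Sox17 and Sox18, which endothelium makes, stood at -0.26 ± 0.14 and -0.26 ± 0.20, Sox4 at -0.22 ± 0.15 and Sox12 at 0.23 ± 0.22. All 11 intermediate filament genes were measured, 7 higher and 4 lower, with a median of 0.01 that turned below 0 under normexp and scaling to detected probes. Krt20 was followed by Gfap at 0.34 ± 0.40, within its error, Krt18 at 0.25 ± 0.20 and Krt19 at 0.15 ± 0.20, and Vim at -0.02 stood below these keratins.

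**Figure D5:**
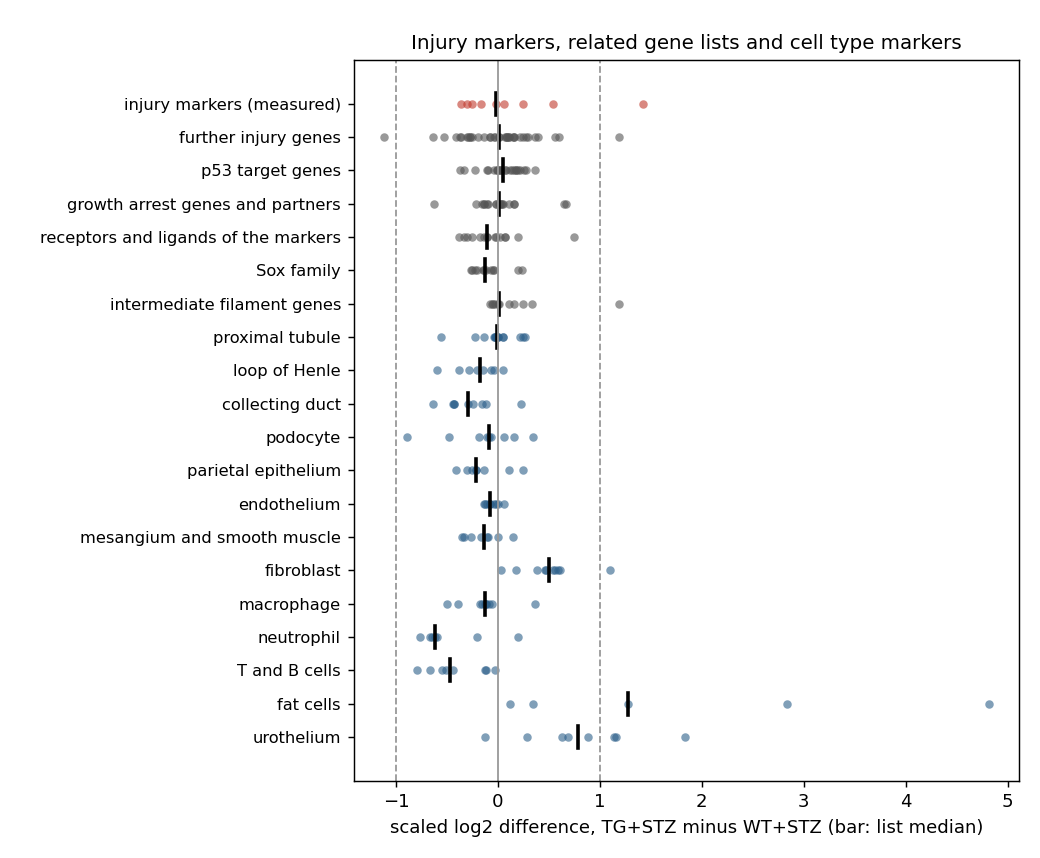
Scaled log2 difference, TG+STZ minus WT+STZ, of each measured gene (points) and list median (black bars) for the injury markers (red), 6 related gene lists (grey) and 13 lists of cell type markers (blue). Dashed lines mark 2-fold. The injury markers straddle 0, while fat cell, urothelium and fibroblast markers lie mostly to the right and neutrophil and T and B cell markers mostly to the left.

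The arrays also differed in markers of other cells that make the injury proteins, and in bulk RNA fewer cells of a type and less RNA per cell cannot be told apart. Sums of signal over a list are given before scaling, and the TG+STZ array was the brighter of the arrays. Its 75th percentile was 2042 units, against 1933 units in WT+STZ. A sum is also led by its brightest genes. It can therefore be higher in TG+STZ where the median difference is below 0. This was so for proximal tubule, loop of Henle, parietal and endothelial markers. A small excess of a sum in TG+STZ is thus no sign of a higher scaled level. Proximal tubule markers, the source of Havcr1, were bright and nearly level. All 15 were measured, 6 higher and 9 lower, with a median of -0.01 and signals that summed to 2996910 units in TG+STZ and 2837100 units in WT+STZ. Slc22a8 and Slc22a6, transporters of organic anions, were furthest at -0.56 ± 0.20 and 0.26 ± 0.20. The tissue was labelled as glomerular, and podocyte markers were present with 9 of 9 measured, 3 higher and 6 lower, a median of -0.09 and sums of 29687 units in TG+STZ and 33047 units in WT+STZ. The largest difference in this list was that of Nphs1, a gene for a slit diaphragm protein, at -0.89 ± 0.20.

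Most markers of segments beyond the proximal tubule, where Spp1, Clu and Lcn2 are also made, were lower. Loop of Henle markers had 1 of 8 genes higher, a median of -0.18 and sums of 459045 units in TG+STZ and 435731 units in WT+STZ, with Tmem207 at -0.60 ± 0.20 and Ptger3 at -0.38 ± 0.14. Collecting duct markers had 1 of 9 higher, a median of -0.30 and sums of 63392 units in TG+STZ and 74540 units in WT+STZ, with Slc26a4 at -0.63 ± 0.20 and Hsd11b2 at -0.44 ± 0.20. Spp1 at -0.25 and Clu at -0.17 lay near these medians, and Lcn2 at 0.25 on the other side of 0. Whether the segment markers had a part in these values was not tested.

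Neutrophil markers, from another source of Lcn2, were lower. Of 11 listed, 7 were measured, 1 higher and 6 lower, with a median of -0.62 and sums of 4300 units in TG+STZ and 4962 units in WT+STZ. Most of both sums came from Elane, with 3626 units in TG+STZ and 3966 units in WT+STZ, which stood at -0.21 ± 0.20. S100a9 stood at -0.76 ± 0.20 and Ltf, a granule protein, at -0.67 ± 0.24. Ltf was dim, at 37.0 units in TG+STZ and 55.6 units in WT+STZ, and differences spread more widely among dim genes. Ngp, Cxcr2 and Mmp8 were at or near background on both arrays. Lcn2 stood at 0.25, and the part of neutrophil RNA in this value was not tested. Macrophage markers, from a source of Spp1, had 10 of 11 measured, 1 higher and 9 lower, a median of -0.12 and sums of 9886 units in TG+STZ and 10306 units in WT+STZ, led by Lyz2 at -0.50 ± 0.20 and Ms4a7 at -0.40 ± 0.20. T and B cell markers had 0 of 8 higher, a median of -0.47 and sums of 2141 units in TG+STZ and 2380 units in WT+STZ, led by Ms4a1 at -0.79 ± 0.21 and Cd8a at -0.66 ± 0.20. Their part in the lower Vcam1 and Spp1 was not tested.

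Markers of cells that make Vcam1 or Vim were mostly slightly lower, with the exception of fibroblast markers. Endothelial markers had 1 of 9 higher, a median of -0.08 and sums of 47665 units in TG+STZ and 47080 units in WT+STZ, with Flt1 at -0.14 ± 0.20 and Pecam1 at -0.12 ± 0.20. Parietal epithelial markers had 2 of 8 higher, a median of -0.22 and sums of 23166 units in TG+STZ and 21499 units in WT+STZ, with Prom1 at -0.41 ± 0.14 and Akap12 at -0.31 ± 0.21. Mesangial and smooth muscle markers had 2 of 8 higher, a median of -0.14 and sums of 24393 units in TG+STZ and 25835 units in WT+STZ, with Acta2 at -0.35 ± 0.20 and Thy1 at -0.33 ± 0.20. Fibroblast markers had 10 of 10 higher, a median of 0.50 and sums of 31824 units in TG+STZ and 23473 units in WT+STZ, with Clec3b at 1.096 ± 0.24 and Igfbp6 at 0.61 ± 0.20. Vim, at -0.02, stood between these lists.

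Transcripts of tissue outside the nephron were higher in TG+STZ. Urothelium markers had 7 of 8 higher, a median of 0.78 and sums of 8034 units in TG+STZ and 3829 units in WT+STZ, with Fcgbp at 1.83 ± 0.20 and the plaque protein gene Upk1a at 1.16 ± 0.20. Fat cell markers had 5 of 9 measured and 5 of 5 higher, a median of 1.28 and sums of 130312 units in TG+STZ and 110342 units in WT+STZ, with Cfd at 4.82 ± 0.22 and Retn at 2.84 ± 0.24. Adipoq, Plin1 and Ucp1 were well above background in TG+STZ and not in WT+STZ, and Lep was so on neither array. These lists stood on the same side of 0 as Gadd45g, Havcr1, Lcn2 and Krt20, and their part in those values was not tested.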

How the data were processed

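Total RNA from 1 sample per group was labelled with Cy3 and hybridised to 1-colour Agilent arrays. Per the file headers, the authors' intensity values are background-subtracted, detrended output of Agilent Feature Extraction 10.7.1.1. Version 10.3.1.1 stands in the submitters' processing notes. The deposited value table held exactly the same intensity values as the scanner tables (tolerance 0) at 44397 of 44397 spots on both arrays. The deposited flags, a 0 or 1 per spot and other than a measurement, mark outliers and spots well above background. From these files, log2 intensity was computed and set to each array's 75th percentile, taken over 43020 gene spots. Outlier spots (109 in TG+STZ and 114 in WT+STZ) were left out, spots of 1 probe were averaged, and a probe was measured when most of its spots were well above background on both arrays (76.3% of spots in TG+STZ and 75.0% in WT+STZ were; 0 were saturated). Probes of a gene were averaged. Names came from RefSeq (GRCm38.p6), which matched 26410 of 39426 probes. The array design names another build, so no coordinates are given for probes; those of start regions are RefSeq's. The number of arrays limits the precision.

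The members and lists were chosen with earlier results of these data known. The text names every member probe, Gadd45b, Trp53, Mdm2 and Sirt1, the 4 genes furthest from 0 of each gene list and the 2 furthest of each cell type list (1 is not reported here); Itga4 and markers below background were added after their values were seen. The main scaling, the averaging of spots and probes and the 2-fold call were tested on simulated signals with known changes. The alternatives, the motif search and the list summaries were not. Alternatives were normexp (offset 50, on spot medians), quantile normalization, loess (span 0.3), median scaling, scaling to detected probes, spike-in centring, the value table, no filter, a laxer detection flag, the brightest probe and a 1.5-fold threshold. R 4.3.3 with limma 3.58.1 ran normexp and quantile normalization, statsmodels 0.14.6 ran loess, and Python 3.11.15 with pandas 2.3.3, numpy 2.4.6 and matplotlib 3.10.9 did the rest.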

Additional observations from a re-analysis of the deposited data

How the results depend on the processing

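No paired analysis was possible because each group had 1 array, and leaving out a replicate was not possible for the same reason. The counts of injury markers beyond 2-fold (1 higher and 0 lower) were the same under 10 other settings and at 1.5-fold, except that Havcr1 passed 1.5-fold under loess at 0.59. The value table, 1 of these settings, could not differ in any result, because it repeats the scanner values. Gadd45g ran from 1.38 to 1.45. Of 90 recomputed differences of the 9 measured genes, those from the value table could not move. Nor did those with no filter or the laxer flag, which kept the same probes of these genes. The brightest probe can alter only Vcam1 and Cdkn1a, the genes with several probes. Counting all of these, 89 of the 90 moved by less than the scanner error. The exception was Havcr1 under normexp, at 0.25 against 0.54, where the offset shrinks dim signals by construction. Signs changed in 3 of the 90, all near 0, for Vim under median scaling (0.00) and spike-in centring (0.00) and for Cdkn1a under normexp (-0.06). The median of the members ran from -0.06 to 0.02 over the settings and from -0.09 to 0.02 with each member left out in turn. Of 60 list medians, 8 changed sign and 6 moved: under normexp to -0.05 for further injury genes and -0.06 for both growth arrest and intermediate filament genes, and 3 for receptors and partners, to between -0.03 and -0.02. Normexp lowered the counts of all genes beyond 2-fold to 36 higher and 29 lower, against 83 and 75, and no filter raised them to 295 and 323 and the laxer flag to 202 and 217. Unfiltered, Sox9 stood at 0.33. The 8 spike-in probes differed by -0.05 to 0.05 after scaling. Signal over background limits Sox9 and the dimmer Cdkn1a probe, at 1.41 and 2.38 times the lowest signal counted as above background in TG+STZ.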
